A study of Ciona robusta with 6 samples.

Results

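The cardiopharyngeal kernel genes are 8 transcription factor genes of the heart and pharyngeal muscle lineage of the tunicate Ciona robusta, Mesp, Foxf, Hand.r, Irxb, Gata4/5/6, Nk4, Hand and Tbx1/10. They were chosen by name for their place in the circuit and not by a rule on measured values. Earlier results of these data were known at that choice. They are 8 of the 16526 gene models counted. The study misexpressed Lhx3/4, a LIM homeobox gene, in the anterior neural plate (ANP), and asked whether it brings cardiopharyngeal transcription into a neural lineage. Polyadenylated RNA of sorted cells was sequenced in 6 libraries, 3 labelled as biological replicates in each group, with 52637768 to 71200276 reads assigned to genes per library. The Lhx3/4 group consisted of wildtype embryos that received the Dmrt>Lhx3/4 plasmid together with Dmrt>GFP by electroporation, and the control group of wildtype embryos that received Dmrt>GFP alone. Both groups were raised at 18 °C and dissociated, and their GFP+ cells were collected by FACS. The Dmrt enhancer, active in the ANP lineage, drives both GFP and Lhx3/4, so GFP marks cells that took up the reporter rather than cells in which Lhx3/4 protein was measured, and plasmid uptake after electroporation varies between cells. No age beyond embryonic is labelled.

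In Ciona the heart and part of the pharyngeal muscle come from a pair of founder cells, the cardiopharyngeal founders, which turn on the bHLH factor gene Mesp. Their daughters, the cardiopharyngeal progenitors (CPPs), respond to FGF through MapK and Ets factors by transcribing Foxf, Hand.r, Irxb and Gata4/5/6, and then migrate ventrally. Their descendants divide into heart precursors, where Nk4 and Hand act, and siphon muscle founders, where Tbx1/10 acts upstream of Ebf.

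The misexpressed gene checked the labels. Lhx3/4 (KH.S215.4) had 35832, 42058 and 39339 reads in replicates 1, 2 and 3 of the Lhx3/4 group, against 2022, 3214 and 2014 reads in those of the control group, and the groups did not overlap. Transgene and endogenous transcripts were counted together. The ANP markers Six3/6, Onecut and Tyrp-1 were present in control cells at 363 to 609 CPM (reads in every 1000000 of a library, scaled for its composition) and stood at 1.53 to 57.3 CPM in Lhx3/4 cells, and all 3 fell (edgeR adjusted p from 2e-04 to 0.00269). Of the motor ganglion markers, Nkx6 rose, with a log2 fold change of 2.67 ± 0.55 (SE, n = 3 each, edgeR adjusted p = 0.036). Its call was lost with any single library left out other than Lhx3/4 replicate 1, at edgeR adjusted p from 0.0547 to 0.134, and its fold was 3.88 without Lhx3/4 replicate 2, against 6.38 with all libraries. Vsx had 83, 83 and 118 reads in Lhx3/4 cells, against 6, 4 and 0 in control cells, and passed the read minimum of the test only through the Lhx3/4 group. The study singled out all these markers from among the most lowered or most raised genes of these same libraries. Their directions were thus fixed by that choice, and their p-values are not independent evidence of a shift. The part of this wider shift in the values of the kernel genes was not tested, and in bulk samples fewer cells of a type and less RNA per cell cannot be told apart.

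Of the 8 kernel genes, Foxf and Irxb rose and Nk4 fell in Lhx3/4 cells. Hand.r and Tbx1/10 were higher in every Lhx3/4 library than in any control library but were not called in the main fit. That fit leaves the replicate numbers out, although libraries of the same number deviated together across genes. With those numbers included Hand.r was called up, at a log2 fold change of 2.13. DESeq2 called Hand.r up as well, at 1.91, whereas Tbx1/10 was called in neither setting. Gata4/5/6 overlapped between the groups, and Mesp and Hand had almost no reads in either. A gene was tested where it had at least 100 reads over the 6 libraries and was called where the edgeR quasi-likelihood p, adjusted over all 13641 genes tested, was under 0.05 and the log2 fold change was beyond 0.58 in either direction. By this rule 2 of the 6 tested kernel genes were up and 1 was down, where 1.85% of all tested genes were up and 2.92% were down. The groups stood apart upward for 4 of the 6 and downward for 1, where 10.9% of all tested genes stood apart upward and 10.6% downward. The 6 tested genes had at least 385 reads in each group alone, so none passed the read minimum through its higher group. Their median log2 fold change was 1.12, where the median of all tested genes was 0.01. The study had already named Foxf, Hand.r and Irxb as raised in these same libraries. These shares and medians are thus not those of a set picked blind to the data.

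**Figure D1:**
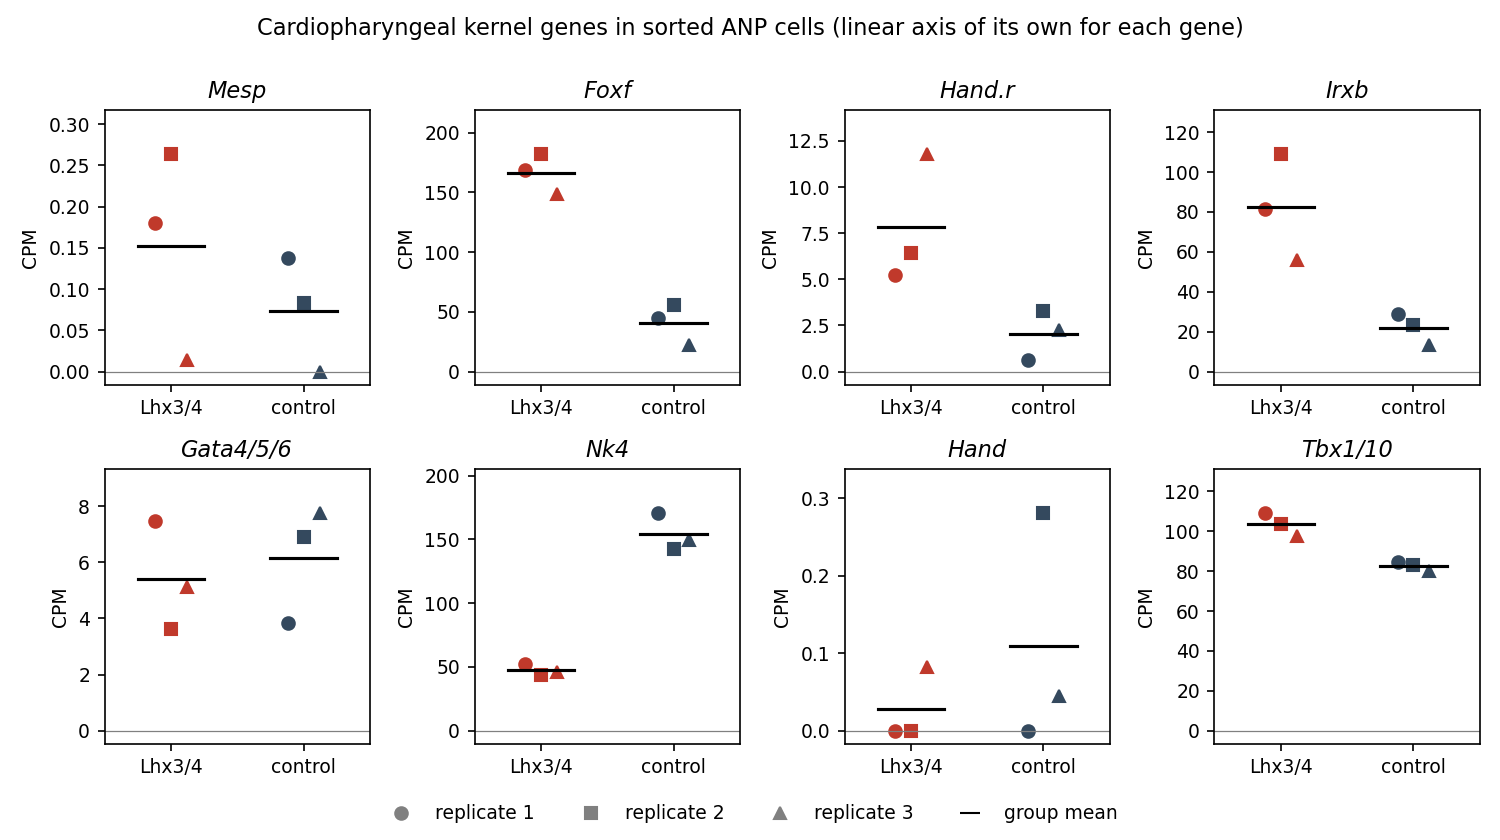
CPM of each kernel gene in the 3 Lhx3/4 libraries (red, left) and the 3 control libraries (dark, right), on a linear axis of its own for each gene, with the marker shape giving the replicate number and a bar the group mean. Foxf, Hand.r, Irxb and Tbx1/10 stood higher in all Lhx3/4 libraries and Nk4 lower in all of them, while Gata4/5/6 overlapped and Mesp and Hand stayed under 0.3 CPM in every library.

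Mesp (KH2012:KH.C3.100), which heads the program in the founder cells, stayed near silent. It had 10, 18 and 1 reads in Lhx3/4 replicates 1, 2 and 3, against 8, 5 and 0 reads in the control replicates. In CPM these were 0.18, 0.264 and 0.0137 in Lhx3/4 cells and 0.137, 0.0827 and 0 in control cells. The groups overlapped, replicate 3 was the lowest library of both groups, and the 42 reads in all were below the minimum for the test. The summed reads gave a ratio of 2.11 for Lhx3/4 over control, with an exact interval of 1.06 to 4.42 that covers counting error only, whereas an exact two-sided permutation test over libraries gave p = 0.5, where the smallest p that 3 against 3 allows is 0.1. Leaving out Lhx3/4 replicate 2 brought the ratio to 1.22, and leaving out Lhx3/4 replicate 3 or control replicate 1 or 3 brought it to 3.23, 3.76 or 1.35. At each replicate number the Lhx3/4 library had a higher Mesp level than the control library, with reads of 10 against 8, 18 against 5 and 1 against 0, and no model test covers this order at so few reads.

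Besides Lhx3/4, the founder genes examined beside Mesp were the 2 models paired with TBX6, and both had fewer reads in Lhx3/4 cells. Tbx6-r.b acts with Lhx3/4 on Mesp in the founders, and the study's lists pair 2 models with TBX6. The study gave homologs to the genes most changed in these same libraries. The direction of both models was thus fixed by that choice and is not a separate result about founder genes. Model KH.S654.1 had 1, 1 and 0 reads in Lhx3/4 cells, against 99, 15 and 17 in control cells. Model KH.S654.2 had 10, 0 and 4 reads in Lhx3/4 cells, against 55, 116 and 59 in control cells. Both were lower in every Lhx3/4 library than in any control library, and both passed the read minimum only through the control group, so their tests are not given. The next model in name, KH.S654.3, is on the list of genes expressed in CPPs without a homolog and was added after its values were seen. It had 114, 146 and 24 reads in Lhx3/4 cells, against 256, 737 and 25 in control cells, and its groups overlapped. Reads that fit more than one of these models could have gone uncounted, which would lower their counts.

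Among the genes that respond directly to FGF in the CPPs, Foxf (KH2012:KH.C3.170) had the highest fitted fold change, close to those of Hand.r and Irxb. Foxf is a forkhead factor gene needed for CPP migration, and it also has an enhancer active in epidermis. It had 9393, 12431 and 10808 reads in the Lhx3/4 libraries, against 2587, 3348 and 1461 reads in the control libraries. In CPM it stood at 169, 182 and 148 in Lhx3/4 cells and at 44.4, 55.4 and 21.8 in control cells. The groups lay far apart, the lowest Lhx3/4 library holding 2.68 times the level of the highest control library. The means were 167 ± 17.0 CPM in Lhx3/4 cells and 40.5 ± 17.1 CPM in control cells (SD, n = 3 each). The SDs were alike, but relative to the mean the controls were more uneven, since their highest library was 2.54 times their lowest, against 1.23 times among the Lhx3/4 libraries. Foxf rose 4.11-fold, a log2 fold change of 2.04 ± 0.32 (SE) with a 95% interval of 1.29 to 2.79 (edgeR adjusted p = 0.0115). It was called with any one library left out, at adjusted p between 0.00324 and 0.0453. Control replicates 2 and 3, with the highest and the lowest Foxf level, also had the highest and the lowest Lhx3/4 level of the control libraries, 53.1 and 30.1 CPM, with 34.7 CPM in replicate 1. Among the Lhx3/4 libraries replicate 3 was lowest in both, but replicate 1 had the highest Lhx3/4 level and replicate 2 the highest Foxf level. A relation between the levels was not tested.

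Irxb (KH2012:KH.C11.485), an Iroquois class homeobox gene, rose nearly as much. Its reads numbered 4544, 7444 and 4077 in the Lhx3/4 libraries, against 1676, 1412 and 902 in the control libraries. Levels were 81.7, 109 and 56.0 CPM in Lhx3/4 cells and 28.8, 23.3 and 13.5 CPM in control cells. The groups did not overlap, and replicate 3 was the lowest of both groups. Irxb averaged 82.3 ± 26.6 CPM in Lhx3/4 cells and 21.9 ± 7.75 CPM in control cells (SD, n = 3 each). It rose 3.76-fold, a log2 fold change of 1.91 ± 0.34, with a 95% interval of 2.17- to 6.55-fold (edgeR adjusted p = 0.0199). The call was lost without Lhx3/4 replicate 1, Lhx3/4 replicate 2 or control replicate 2, at edgeR adjusted p = 0.0641, 0.066 and 0.0743, while the log2 fold change stayed between 1.66 and 2.13 over all libraries left out in turn.

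Hand.r (KH2012:KH.C1.1116), a bHLH gene of the Hand family that acts on the path to Tbx1/10, had a mean difference of similar size but a wider spread. It had 292, 439 and 859 reads in Lhx3/4 cells, against 36, 200 and 149 reads in control cells. This came to 5.25, 6.44 and 11.8 CPM in Lhx3/4 cells and 0.618, 3.31 and 2.22 CPM in control cells. All Lhx3/4 libraries stood above all control libraries, the nearest pair being 1.59-fold apart, and control replicate 1 was far below the other two. The means were 7.83 ± 3.49 CPM in Lhx3/4 cells and 2.05 ± 1.35 CPM in control cells (SD, n = 3 each). The log2 fold change was 1.93 ± 0.63 with a 95% interval of 0.46 to 3.41 and missed the threshold (edgeR adjusted p = 0.173). Hand.r was called when edgeR was blocked by replicate number, at 2.13 ± 0.44 (adjusted p = 0.0201), and by DESeq2, at 1.91 ± 0.63 (adjusted p = 0.0269). Under both of these settings 3 kernel genes were up, where the blocked fit called 4.72% of all tested genes up and DESeq2 3.5%. The blocked fit called Nk4 alone of them down, where it called 6.94% of all tested genes down.

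Gata4/5/6 (KH2012:KH.L20.1), a zinc finger factor gene of heart and endoderm, did not differ between the groups beyond its spread. Its reads were 416, 247 and 373 in Lhx3/4 cells, against 223, 418 and 520 in control cells. Its levels were 7.48, 3.62 and 5.12 CPM in Lhx3/4 cells and 3.83, 6.91 and 7.76 CPM in control cells. The groups overlapped throughout, with Lhx3/4 replicate 1 and control replicate 1 at opposite ends of their groups. Gata4/5/6 averaged 5.41 ± 1.94 CPM in Lhx3/4 cells and 6.17 ± 2.07 CPM in control cells (SD, n = 3 each). The log2 fold change was -0.19 ± 0.41 (edgeR adjusted p = 0.892), and its 95% interval of -1.14 to 0.76 reached neither the fitted rise of Foxf nor that of Irxb. Its sign turned without Lhx3/4 replicate 2, at 0.03, and without control replicate 3, at 0.01.

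**Figure D2:**
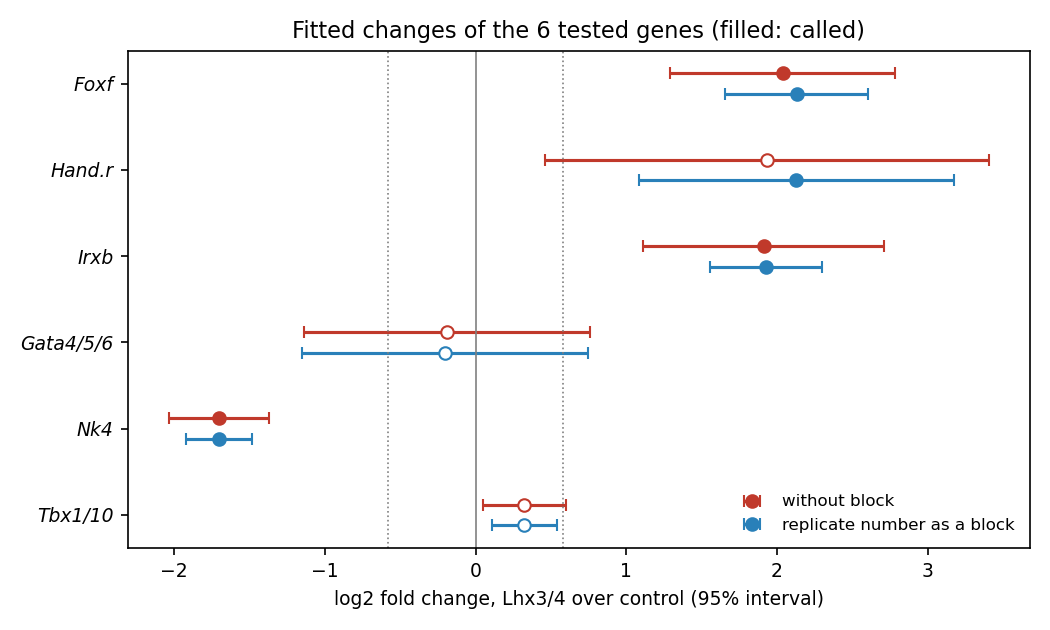
Fitted log2 fold change of the 6 tested kernel genes, Lhx3/4 over control, with 95% intervals, from edgeR without a block (red) and with a block for the replicate number (blue), filled where called and with dotted lines at 0.58 in either direction. Hand.r was the gene whose call differed between the fits, at 1.93 without the block and 2.13 with it, while Nk4 had the narrowest interval of the called genes at -2.03 to -1.37 without the block.

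The last 3 genes were grouped by the later heart and siphon muscle branches, but the study also lists Nk4 and Hand in CPPs. None of the 3 was called up. The study matched its time of sequencing to mid-tailbud CPPs, and the branches arise from divisions that follow CPP migration. Levels at later times were not measured. Nk4 (KH2012:KH.C8.482), the homeobox gene of heart precursors related to vertebrate Nkx2-5 and fly tinman, went the other way. It had 2918, 2965 and 3369 reads in Lhx3/4 cells, against 9949, 8598 and 10032 reads in control cells. In CPM it stood at 52.5, 43.5 and 46.3 in Lhx3/4 cells and at 171, 142 and 150 in control cells. The groups were far apart, and within each of them the highest library was only about 1.2 times the lowest. Nk4 averaged 47.4 ± 4.6 CPM in Lhx3/4 cells and 154 ± 14.8 CPM in control cells (SD, n = 3 each). The gene was thus well expressed in control ANP cells, and it was 3.25-fold lower in Lhx3/4 cells, a log2 fold change of -1.70 ± 0.14 with a 95% interval of -2.03 to -1.37 (edgeR adjusted p = 8.98e-04). It was called with any one library left out, at adjusted p between 0.00237 and 0.00804.

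Hand (KH2012:KH.C14.604), the bHLH gene of heart precursors that shares its family with Hand.r, stayed silent. It had 0, 0 and 6 reads in the Lhx3/4 libraries, against 0, 17 and 3 reads in the control libraries. The groups overlapped, and most of the 26 reads came from control replicate 2. The 6 summed reads of Lhx3/4 cells against 20 of control cells gave a ratio of 0.283, with an exact counting interval of 0.0931 to 0.732, and an exact two-sided permutation test over libraries gave p = 0.6. Without control replicate 2 the ratio was 1.27, and without Lhx3/4 replicate 3 no read was left in Lhx3/4 cells. For scale, 3 reads summed over a group correspond to 0.0153 CPM in Lhx3/4 cells and 0.0162 CPM in control cells.

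Tbx1/10 (KH2012:KH.C7.165), the T-box gene of siphon muscle founders, was present in both groups and slightly higher with Lhx3/4. It had 6077, 7059 and 7116 reads in Lhx3/4 cells, against 4922, 5026 and 5381 reads in control cells. Levels were 109, 103 and 97.8 CPM in Lhx3/4 cells and 84.4, 83.1 and 80.3 CPM in control cells. The groups did not overlap, with the lowest Lhx3/4 library 1.16-fold above the highest control library. Tbx1/10 averaged 103 ± 5.75 CPM in Lhx3/4 cells and 82.6 ± 2.09 CPM in control cells (SD, n = 3 each). This 1.25-fold difference, a log2 fold change of 0.32 ± 0.12 with a 95% interval of 0.05 to 0.60, was not called (edgeR adjusted p = 0.226, and 0.0578 in the blocked fit), and it is smaller than the fold the rule asks for. Downstream of Tbx1/10 in siphon muscle founders lies Ebf, a factor gene also used in neurons. The model taken as the EBF3 homolog of the study's list (KH.L24.10) fell, with 112, 295 and 55 reads in Lhx3/4 cells, against 5528, 8432 and 6640 reads in control cells (log2 fold change -5.55 ± 0.63, edgeR adjusted p = 0.00311). This model was matched by its place in the study's order of fold change for these same libraries. Its fall was thus fixed by that choice, and its p-value is not independent evidence.

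The kernel genes differed in how closely libraries of one group resembled each other. The pooled within-group SD of log2 CPM was 0.06 for Tbx1/10 and 0.14 for Nk4, and 98.9% and 89.1% of tested genes had a larger one. It was 0.51 for Foxf, 0.53 for Irxb and 0.53 for Gata4/5/6, against a median of 0.34 over all tested genes. Hand.r had the widest spread of the 6, 0.99, and 13.9% of tested genes exceeded it.

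Libraries with the same replicate number deviated together across genes, so the differences were also taken number by number. The log2 ratio of Nk4, Lhx3/4 over control, was -1.70, -1.71 and -1.69 at replicate numbers 1, 2 and 3, an SD of 0.0076. That of Tbx1/10 was 0.37, 0.32 and 0.28. Both genes thus repeated nearly the same ratio at each number. Foxf gave 1.93, 1.72 and 2.77, and Irxb gave 1.51, 2.22 and 2.06. Hand.r gave 3.07, 0.96 and 2.40, or 8.40-, 1.94- and 5.29-fold. The numbers at which Foxf, Irxb and Hand.r differed most were 3, 2 and 1, a different number for each gene. Gata4/5/6 gave 0.97, -0.93 and -0.60, higher with Lhx3/4 at number 1 and lower at the other two.

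**Figure D3:**
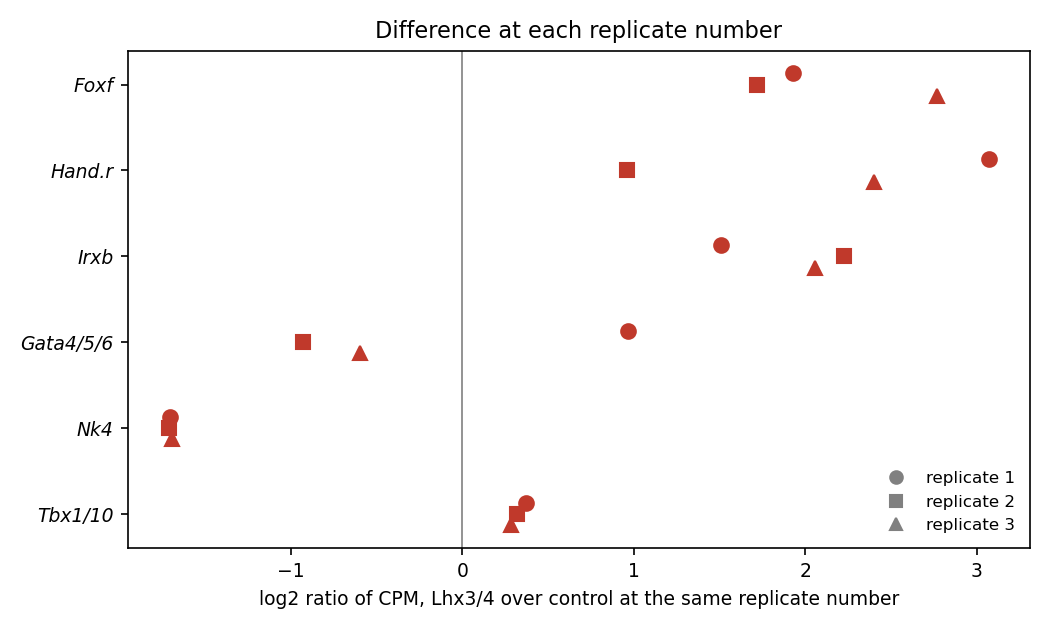
Log2 ratio of CPM, Lhx3/4 over control, for the libraries that share a replicate number (marker shape), in the 6 tested kernel genes. The 3 ratios of Nk4 coincide near -1.70 and those of Tbx1/10 lie between 0.28 and 0.37, whereas those of Hand.r range from 0.96 to 3.07 and those of Gata4/5/6 fall on both sides of 0.

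Whether the higher genes moved in proportion was asked from reads of 2 genes within a library, which need no scaling for depth. For every 100 Foxf reads there were 48.4, 59.9 and 37.7 Irxb reads in Lhx3/4 cells and 64.8, 42.2 and 61.7 in control cells. The groups overlapped, and the mean log2 ratio was lower by a difference of -0.21 in Lhx3/4 cells (exact two-sided permutation p = 0.5). For every 100 Foxf reads there were 3.11, 3.53 and 7.95 Hand.r reads in Lhx3/4 cells and 1.39, 5.97 and 10.2 in control cells. These overlapped as well, with a difference in mean log2 ratio of 0.01 (exact two-sided permutation p = 1.0). A change in proportion was not detected for either pair, and with 3 libraries a group neither test could have given a p below 0.1. Both tests also left the replicate numbers out. Within a number, Hand.r per Foxf read was higher with Lhx3/4 at number 1 and lower at numbers 2 and 3. Irxb per Foxf read was higher with Lhx3/4 at number 2 and lower at numbers 1 and 3.

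Ranked by log2 fold change among the 13641 tested genes, Foxf, Hand.r and Irxb stood next to each other at places 264, 273 and 277 from the top. Among the 294 tested genes of the study's transcription factor list they took places 8, 9 and 10. Nk4 was at place 678 from the bottom among all tested genes and at place 59 from the bottom among the factors. Of all tested genes, 7.51% changed by a larger size than Nk4, against 5.36% for Foxf, 44.4% for Tbx1/10 and 62.2% for Gata4/5/6.

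The factor whose log2 CPM followed Foxf most closely over the 6 libraries was the motor ganglion gene Vsx (Pearson r = 0.98), followed by KH.C8.583 (r = 0.97) and KH.C4.341 (r = 0.97). Vsx had only 6, 4 and 0 reads in control libraries and entered the test through the Lhx3/4 group alone. Its r with Foxf or Irxb therefore reflects the gap between the groups and control values near the floor. Irxb was followed most closely by Foxf itself (r = 0.97), then by Vsx (r = 0.95) and KH.C11.706 (r = 0.94). These are descriptions over 6 libraries that form 2 groups and share each library's depth, out of 293 factors of the study's list compared with each gene. That list leaves out Tbx1/10, whose r with Irxb was 0.95, above that of Vsx before rounding.

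The wider regulators of the CPPs were taken as the genes on both the study's transcription factor list and its list of genes expressed in CPPs of the mid-tailbud embryo. This gave 55 genes, among them all kernel genes but Tbx1/10. Of the 53 tested, 4 were up and 7 were down, 7.55% and 13.2%, with a median log2 fold change of -0.03. The same rule called 3.40% of the 294 tested factors up and 16.7% down, and 1.85% of all tested genes up and 2.92% down. Foxf and Irxb had the 2 largest rises among those called. The others called up were KH.C3.84 and KH.C12.370, with log2 fold changes of 0.70 and 0.67 (edgeR adjusted p = 0.014 and 0.033). Among the 7 called down, not all of which are reported here by name, KH.L96.87 fell by 1.81 on the log2 scale, Nk4 by 1.70 and KH.C8.247 by 1.37. The count up was 1 without Lhx3/4 replicate 1, Lhx3/4 replicate 2 or control replicate 2 and 2 without Lhx3/4 replicate 3. The count down was 4 without Lhx3/4 replicate 1 or 3. In the blocked fit 8 were up and 10 were down, 15.1% and 18.9%, where 4.72% and 6.94% of all tested genes were. In the whole list of genes expressed in CPPs, 25 of 1522 tested were up and 49 were down, 1.64% and 3.22%, close to the 1.85% and 2.92% of all tested genes, with a median log2 fold change of 0.00.

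**Figure D4:**
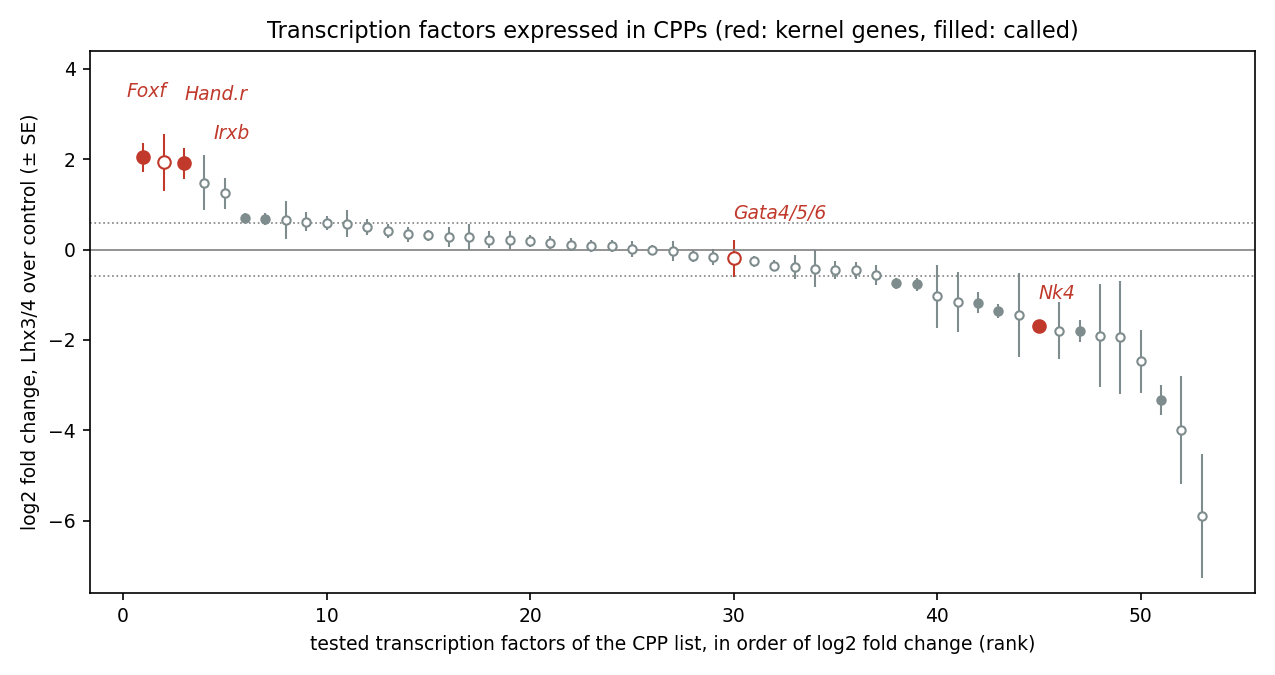
Log2 fold change, Lhx3/4 over control, with its standard error for the 53 tested transcription factors that the study lists as expressed in CPPs, ordered from highest to lowest, with kernel genes in red, called genes filled and dotted lines at 0.58 in either direction. Foxf, Hand.r and Irxb are the 3 highest, Gata4/5/6 lies near 0 at -0.19 and Nk4 lies at -1.70 among the lower factors.

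Foxf itself acts on migration genes and on Gata4/5/6, and the study lists 26 Foxf targets, Gata4/5/6 among them. Of the 24 tested, 1 was up, 2 were down and 21 were not called, 4.17% and 8.33%, where 1.85% of all tested genes were up and 2.92% were down, with a median log2 fold change of -0.09. The model listed as a SLC38A9 homolog (KH.C2.668), an amino acid sensor of lysosomes in human cells, rose by 1.01 ± 0.16 on the log2 scale (SE, edgeR adjusted p = 0.0135), with 324 ± 50.7 CPM in Lhx3/4 cells and 162 ± 17.9 CPM in control cells (SD, n = 3 each). The TRIM2 homolog (KH.C12.84), of a ubiquitin ligase family, fell by 2.14 ± 0.29 (edgeR adjusted p = 0.00633), and KH.C9.371 fell by 1.10 ± 0.22 (edgeR adjusted p = 0.0338). The other paired targets were not called. These were homologs of CECR2 at 1.05, ALPL at 1.00, the Wnt receptor gene FZD4 at -0.61 and the zinc finger gene SALL2 at -1.34, all as log2 fold changes with edgeR adjusted p from 0.077 to 0.244. In the blocked fit, CECR2 (adjusted p = 0.00714) and SALL2 (adjusted p = 0.0167) passed the edgeR test, and 2 targets were up and 5 down in all, 8.33% and 20.8%, where 4.72% and 6.94% of all tested genes were. No target was up without Lhx3/4 replicate 2, Lhx3/4 replicate 3 or control replicate 1, and 1 rather than 2 was down without any single library other than Lhx3/4 replicate 2.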

How the data were processed

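The authors deposited 1 table of raw read counts per library, made with HISAT2 and HTSeq after FastQC, on the ci3 assembly with the KH2012 gene models. Tool versions and the strand setting were not given in the sources used, so genes overlapping on opposite strands cannot be told apart. The labels and the study's methods name different library kits. HTSeq's 5 summary lines, 28.5% to 38.2% of each library's total, were left out of library sizes. The authors' table of their own DESeq2 comparison (mean normalized count, log2 fold change, its error and p-values) was not used.

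A gene entered the test with 100 or more reads summed over the 6 libraries, and tests were run in R 4.3.3 with edgeR 4.0.16 (TMM scaling, normalization factors 0.966 to 1.06, quasi-likelihood test, Benjamini-Hochberg adjustment, called at an adjusted p below 0.05 with a log2 fold change beyond 0.58 in size) without a block. The sources used name no block for the study's own DESeq2 fit. DESeq2 1.42.0, other scalings, other read minimums, stricter thresholds, each library left out and the replicate number as a block were alternatives. CPM values are TMM-scaled, log2 CPM of single libraries used an added count of 0.5, and the intervals of summed reads are exact binomial and cover counting error only, as does the scale of 3 reads. CPM is not divided by transcript length, so levels were compared within a gene only. Genes were named by rule: the 8 kernel genes, Lhx3/4 and the circuit and marker genes around them, the Foxf targets paired with a homolog, the called CPP regulators with the largest changes (at most 2 unpaired models in each direction, and 1 other result is not reported here), and the 3 factors most like Foxf and Irxb. KH.C9.371 and KH.S654.3 were named after their values were seen. Of the study's transcription factor list, the EBF3 homolog was matched to its model by place in the order of fold change. Members, lists and tests were chosen with earlier results of these data known. The titles number both groups 1 to 3, and deviations from group means correlated at 0.51, 0.41 and 0.50 between libraries of the same number and at -0.31 to -0.17 between others, over 13641 genes, so the numbers were taken as pairs. The labels call the libraries biological replicates without naming separate embryo batches, so the p-values speak only of library-to-library spread, which may be technical.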

Additional observations from a re-analysis of the deposited data

How the results depend on the processing

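Foxf, Nk4 and Tbx1/10 kept their direction and their side of the threshold under every alternative tried for the fit (RLE and upper quartile scaling, no read minimum, 100 reads in every library, DESeq2, the replicate block and each library left out). Replicate numbers pair the libraries, and the replicate block moved Hand.r past the threshold at 2.13, as DESeq2 did at 1.91, with no other kernel gene changing its call. With a read minimum in every library Hand.r was not tested, and without a minimum Mesp (1.04, 95% interval -2.53 to 4.61) and Hand (-1.86, -6.36 to 2.64) were fitted by edgeR and not called. At an adjusted p under 0.01 no kernel gene was up. With single libraries left out, 1 to 2 kernel genes were up and the log2 fold change of Irxb ranged from 1.66 to 2.13, that of Hand.r from 1.48 to 2.46, and that of Gata4/5/6 from -0.52 to 0.03, turning positive at 0.0305 and 0.0087. Over the same fits the ratio of summed reads ranged from 1.22 to 3.76 for Mesp and from 0 to 1.27 for Hand, and the difference in log2 ratio to Foxf from -0.82 to 0.62 for Hand.r and from -0.40 to -0.04 for Irxb.

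Counts depended more on the setting, and the cause was not tested. Of all genes, 644 were up and 947 down with the replicate block, 478 and 746 with DESeq2, 211 and 353 at a log2 fold change of at least 1, and 108 and 199 at an adjusted p under 0.01, against 252 and 398 in the main setting, and single libraries left out gave 147 to 305 up and 246 to 426 down. Of the CPP regulators, 8 were up with the block, 2 at a log2 fold change of at least 1 and 0 at an adjusted p under 0.01 (1 to 5 with single libraries left out), and 11 were down with DESeq2 and 4 at an adjusted p under 0.01 (4 to 8). Of the Foxf targets, 2 were up with the block and with DESeq2 and 0 at an adjusted p under 0.01 (0 to 1), and 5 were down with the block, 4 with DESeq2 and 1 at an adjusted p under 0.01 (1 to 2). With DESeq2 the shares down were 20.8% of CPP regulators and 16.7% of Foxf targets, against 5.47% of all tested genes. The shares up were 11.3% and 8.33%, against 3.5%. Mesp and Hand, with 42 and 26 reads, were under the read minimum. Their counting intervals exclude a ratio of 1, while their groups overlapped between libraries.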

Other observations

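The kernel genes differed in how much of their Lhx3/4 group signal the control cells already had. As a share of the Lhx3/4 mean CPM, the control mean was 24.3% for Foxf, 26.2% for Hand.r and 26.6% for Irxb, against 79.8% for Tbx1/10. The Lhx3/4 gene itself gave 6.55%. Nk4 ran the other way, with the Lhx3/4 mean at 30.7% of the control mean. The control cells were thus above zero for every kernel gene that was called.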
